A study of Mus musculus with 17 samples.

Results

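The sites described here are CCCGGG sequences in and around imprinted genes, which are expressed mainly from the maternal or the paternal copy. They were chosen by position and read depth, from a gene list made with earlier results of these data known. A list of 46 imprinted genes was taken, and a site was kept if it lay between 2000 bp upstream of a listed gene and the end of that gene, and if it was covered by at least 50 reads in at least 13 of 17 mice. This left 41 sites in 13 genes, of 18884 autosomal sites that passed the same depth rule and 173449 sites deposited. The DNA came from whole blood of inbred C57BL/6 mice. The assay, DREAM, cuts it with a pair of restriction enzymes and counts methylated and unmethylated molecules at each CCCGGG by sequencing. AL-young mice (n = 5, 2 females and 3 males) were fed ad libitum and were 4 months old, AL-old mice (n = 7, 5 females and 2 males) were fed ad libitum and were 29 to 33 months old, and CR-old mice (n = 5, 2 females and 3 males) were under caloric restriction and were 32 to 38 months old. The number after a group names the mouse. The labels name no genetic modification, and whole blood mixes cell types whose shares were not measured.

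Genomic imprints are DNA methylation marks set in the egg or the sperm and kept in all later cells of the body, while most other methylation is erased and rewritten after fertilisation. The marked stretch, called a germline differentially methylated region, decides which parental copy of the neighbouring genes is expressed. An imprinted region is therefore close to 50% methylated when both copies are read together. KRAB zinc finger proteins such as ZFP57 bind the motif TGCCGC on the methylated copy and recruit the factors that keep the mark. Not every CpG of an imprinted gene belongs to such a region, and the ordinary promoters of these genes are mostly free of methylation.

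Methylation was read in 2 forms. Raw methylation is the deposited share of methylated reads in percent. Its lowest values match 0.5 added to the methylated and 1 to the total reads, so a site without a methylated read is above 0%. Adjusted methylation is the form used in the study, in which spiked DNA standards set a correction factor for each mouse, and the odds of methylation at every site are multiplied by it. The factor lay between 0.896 and 1.13 in the AL-young mice, and it was 1.3 or more in 6 mice, the 5 AL-old females and the CR-old female 06, reaching 3.96 in AL-old 13. The 2 AL-old males, mice 25 and 27, had factors of 0.872 and 0.904. High correction, sex and age cannot be told apart in the AL-old group, so the test used raw counts, and adjusted values are given beside raw ones for the sites that the results turn on. Values not named as adjusted are raw. Total reads ranged from 6.41 to 51.6 M (megareads) per mouse. A site at 50% read 50 times has a 95% Wilson interval of 36.6 to 63.4%, and 3 reads, taken as the least that can be seen, are 6.0% of 50 reads. Intervals and limits cover counting error only.

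Coverage decided which imprinted regions could be described. Of the 46 genes, 43 were found by name in the annotation (Kcnq1ot1, Peg13 and Kcnk9os were not), 38 had at least 1 CCCGGG in the window and 13 had a site with enough reads, in 11 of 21 imprinted domains. H19, Igf2r, Airn, Peg3, Mest, Snrpn, Meg3, Plagl1, Zrsr1, Nnat, Impact and Rasgrf1 had no passing site, so most of the well known germline regions were not covered. A further 5 sites had at least 50 reads in 12 mice and so missed the depth rule by 1 mouse. They were a pair shared by Gnas and Nespas at chr2:174110188-174110193 and chr2:174110632-174110637, 1 of Igf2 at chr7:149849813-149849818 and 2 of Grb10 at chr11:11936773-11936778 and chr11:11937002-11937007. By the AL-young mean of adjusted methylation, 7 sites lay between 35 and 65% and are called half-methylated, 28 lay below and 6 above. The half-methylated sites were 5 sites of Gnas and 2 of Cdh15. Just outside the limits were Cdkn1c at 34.5 and 32.5%, Magel2 at 32.6% and 68.4% and another Gnas site at 69.6%, and just inside was a Gnas site at 39.3%.

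**Figure D1:**
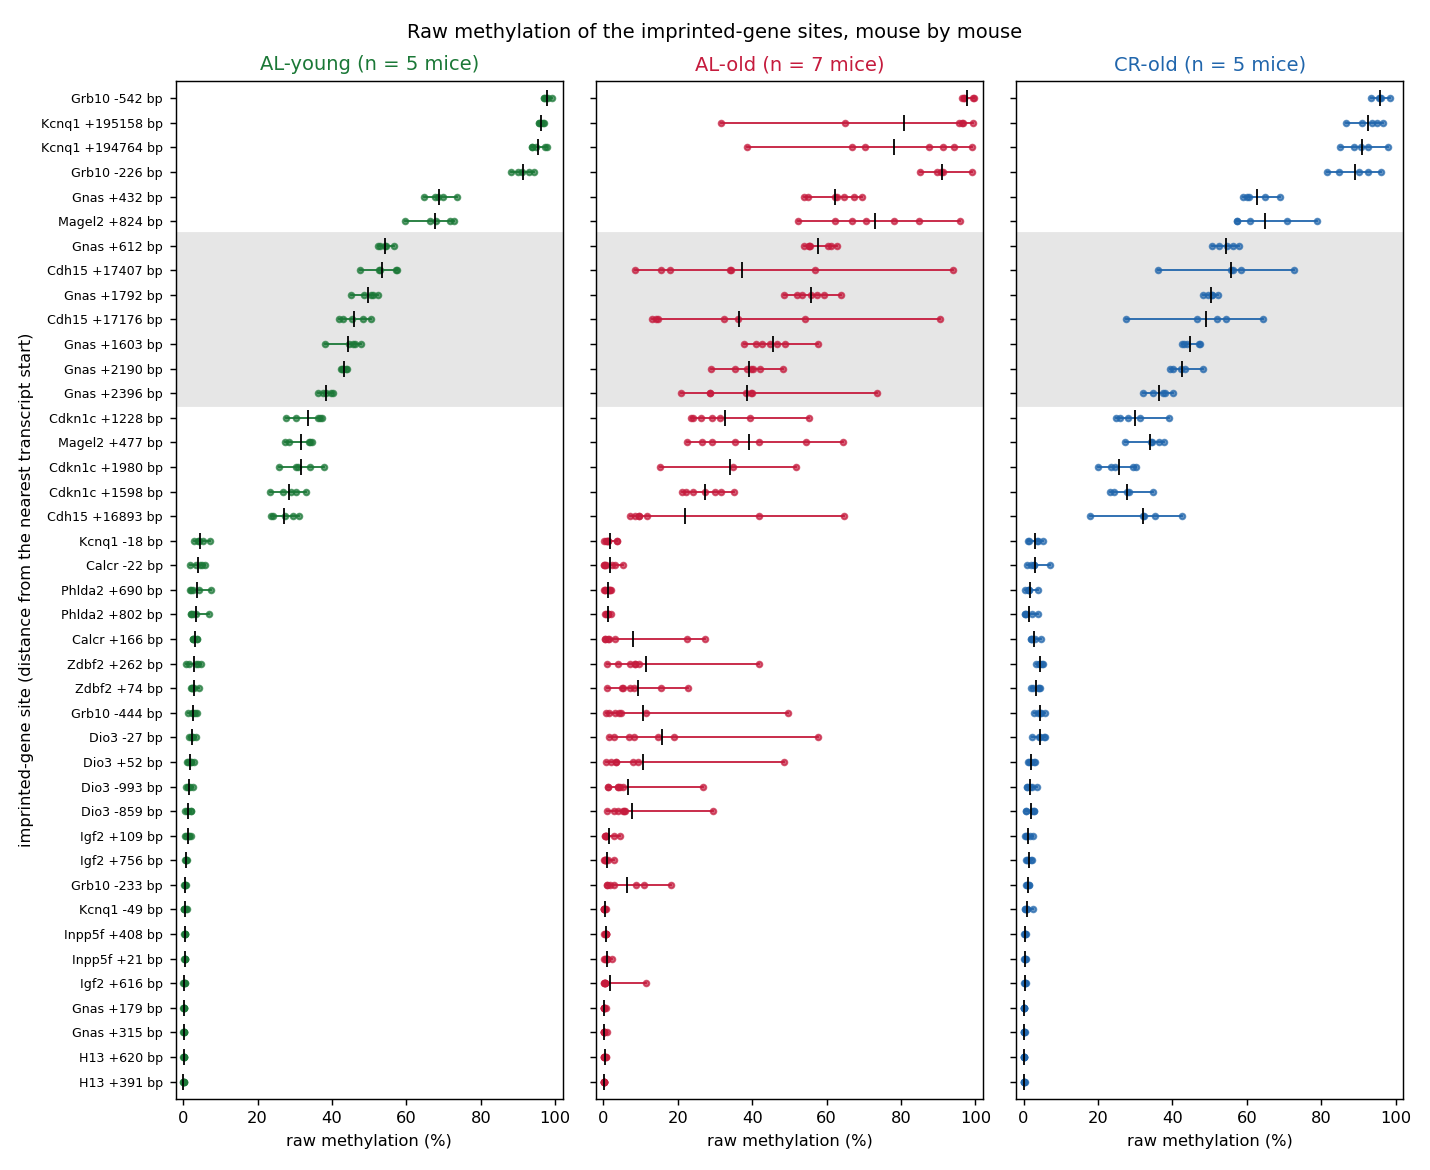
Raw methylation in percent (horizontal axis) of the 41 sites in each mouse, in 1 panel per group, with sites ordered by their AL-young mean adjusted methylation and named by gene and distance from the nearest transcript start. Points are mice, ticks are group means, lines join the lowest and highest mouse and the grey band holds the 7 half-methylated sites. The AL-old mice spread most, with an SD over 10 points at 15 sites (36.6%) against 0 sites in AL-young and 2 (4.88%) in CR-old. Over all tested sites the shares were 24.2% in AL-old, 0.16% in AL-young and 4.85% in CR-old.

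The sequences around 4 of the sites show what was read. They are 300 bases of the plus strand of NCBIM37 (mm9) centred on the site, in lower case with the CCCGGG and any TGCCGC or its reverse complement GCGGCA in capitals. The first comes from the first exon of the long Gnas transcript (chr2:174125005-174125304, site at chr2:174125152-174125157) and is shown because it holds 3 copies of the motif beside a half-methylated site. The second is from the same exon (chr2:174125403-174125702, site at chr2:174125550-174125555), the most deeply read half-methylated Gnas site, and has none. The next is inside Cdh15 (chr8:125388895-125389194, site at chr8:125389042-125389047), the more deeply read of its half-methylated sites. The last is in Grb10 (chr11:11937485-11937784, site at chr11:11937632-11937637), a CpG-dense stretch that was unmethylated in AL-young mice.
Gnas 174125152: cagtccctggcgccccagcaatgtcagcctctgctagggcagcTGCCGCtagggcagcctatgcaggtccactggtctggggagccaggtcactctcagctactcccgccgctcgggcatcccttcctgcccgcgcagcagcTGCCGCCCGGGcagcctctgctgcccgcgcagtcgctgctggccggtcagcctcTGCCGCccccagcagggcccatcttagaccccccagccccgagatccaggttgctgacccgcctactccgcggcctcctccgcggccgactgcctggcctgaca
Gnas 174125550: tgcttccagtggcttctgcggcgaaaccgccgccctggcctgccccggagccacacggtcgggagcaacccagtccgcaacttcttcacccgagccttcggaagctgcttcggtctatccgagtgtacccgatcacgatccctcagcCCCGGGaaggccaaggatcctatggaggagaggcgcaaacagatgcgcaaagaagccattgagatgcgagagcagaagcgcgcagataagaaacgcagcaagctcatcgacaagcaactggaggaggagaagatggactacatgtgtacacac
Cdh15 125389042: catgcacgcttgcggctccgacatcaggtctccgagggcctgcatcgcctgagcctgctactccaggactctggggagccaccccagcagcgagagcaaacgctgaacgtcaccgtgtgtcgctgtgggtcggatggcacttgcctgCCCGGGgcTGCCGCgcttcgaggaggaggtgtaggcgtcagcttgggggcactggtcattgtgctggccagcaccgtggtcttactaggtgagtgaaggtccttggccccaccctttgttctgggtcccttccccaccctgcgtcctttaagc
Grb10 11937632: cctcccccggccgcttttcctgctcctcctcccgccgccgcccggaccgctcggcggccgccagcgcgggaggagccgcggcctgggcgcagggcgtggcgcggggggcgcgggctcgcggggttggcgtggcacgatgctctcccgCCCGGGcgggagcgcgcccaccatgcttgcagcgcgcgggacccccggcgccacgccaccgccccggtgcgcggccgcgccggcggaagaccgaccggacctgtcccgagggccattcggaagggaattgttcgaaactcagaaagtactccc

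The motif TGCCGC was searched on both strands of these 300 bases, and its last C can be the first C of the CCCGGG, as in the first sequence. It lay near 5 of the 7 half-methylated sites (71.4%) and near 13 of all 41 sites (31.7%). Over all 18884 tested sites the share was 19.4%, over the 654 other half-methylated sites 6.42%, and over the 114 of these in CpG-rich windows 15.8%. The windows of neighbouring Gnas and Cdh15 sites overlap in part, so the 7 windows are not independent. Of the 7 half-methylated sites 6 were in CpG-rich windows, against 17.4% of the 654 others.

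The half-methylated Gnas sites had group means of raw methylation between 45.7 and 47.4%, with no call in any comparison. Gnas encodes the stimulatory G protein alpha subunit, and in mice it also makes a longer protein, XLas, from an upstream exon used on the paternal copy. The 5 sites lie 612 to 2396 bp downstream of that transcript start, 4 in its coding exon and 1 in the intron behind it. Over all 5 sites, raw methylation of single mice ran from 36.3 to 56.8% in AL-young, from 20.9 to 73.5% in AL-old and from 32.2 to 57.9% in CR-old. The mean over the 5 sites in each AL-young mouse was 47.6, 45.7, 43.3, 47.1 and 46.1%. In AL-old mice the lowest, median and highest of that mean were 40.4, 46.6 and 57.2%, and in CR-old mice it was 48.5, 45.0, 44.7, 45.3 and 45.1%. The group means were 46.0 ± 1.68% (SD, n = 5), 47.4 ± 5.34% (n = 7) and 45.7 ± 1.60% (n = 5), and the ranges overlapped.

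The most deeply read of them, the Gnas site at 174125550, was 43.7, 42.8, 42.8, 44.1 and 42.4% methylated in the AL-young mice by raw values. The lowest, median and highest AL-old mouse were 28.8, 39.6 and 48.3%, and the CR-old mice were at 48.2, 40.3, 43.4, 42.3 and 39.3%. The AL-old mice spread to both sides of the young ones. The log2 odds ratio of AL-old against AL-young was -0.26 ± 0.59 (SE; edgeR quasi-likelihood F test, Benjamini-Hochberg adjusted p = 0.891), and that of CR-old against AL-old was 0.23 ± 0.59 (edgeR adjusted p = 0.967). The standard errors are so wide that even a change much larger than several points could have been missed. The lack of a call therefore does not show that methylation was stable.

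Adjustment lifted the Gnas sites away from 50% in the mice with high factors. In adjusted values the mean over the 5 sites was 70.0, 65.6, 58.9, 70.4 and 64.9% in the 5 AL-old females and 59.2% in CR-old 06. It was 44.8 and 43.1% in the AL-old males. The 11 mice with low factors lay between 43.0 and 49.1%. Every one of the 6 high-factor mice was above every one of the other 11 in adjusted values and not in raw values. The adjustment multiplies the odds by the factor, so this separation largely follows from it. It does not show which form is closer to the true level. With adjusted values in the test, as an offset in edgeR or in limma, none of the 5 sites passed the threshold in any comparison.

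The Gnas site just above the limit, 174123792, lies in the same exon, 432 bp from the transcript start. It was 68.5, 69.8, 64.7, 67.8 and 73.6% methylated in AL-young mice, 53.8, 62.7 and 69.5% in the lowest, median and highest AL-old mouse and 64.8, 60.1, 60.7, 59.1 and 69.0% in CR-old mice. The group means were 68.9, 62.2 and 62.7% raw and 69.6, 73.0 and 65.4% adjusted, so AL-old was the lowest group in the first form and the highest in the second. The log2 odds ratio of AL-old against AL-young was -0.43 ± 0.59 (edgeR adjusted p = 0.738), and no comparison called the site.

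One mouse differed at a single Gnas site. At 174125756, the intron site, raw methylation was 73.5% in AL-old 14, while the other AL-old mice were between 20.9 and 39.9% and the AL-young mice were at 39.7, 40.3, 37.5, 38.5 and 36.3%. The neighbouring site at 174125550, a short distance upstream, was at 40.3% in AL-old 14, within the range of the AL-old group. In adjusted values AL-old 14 was at 79.6% at the intron site and the other AL-old mice were at 35.9 to 56.1%.

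**Figure D2:**
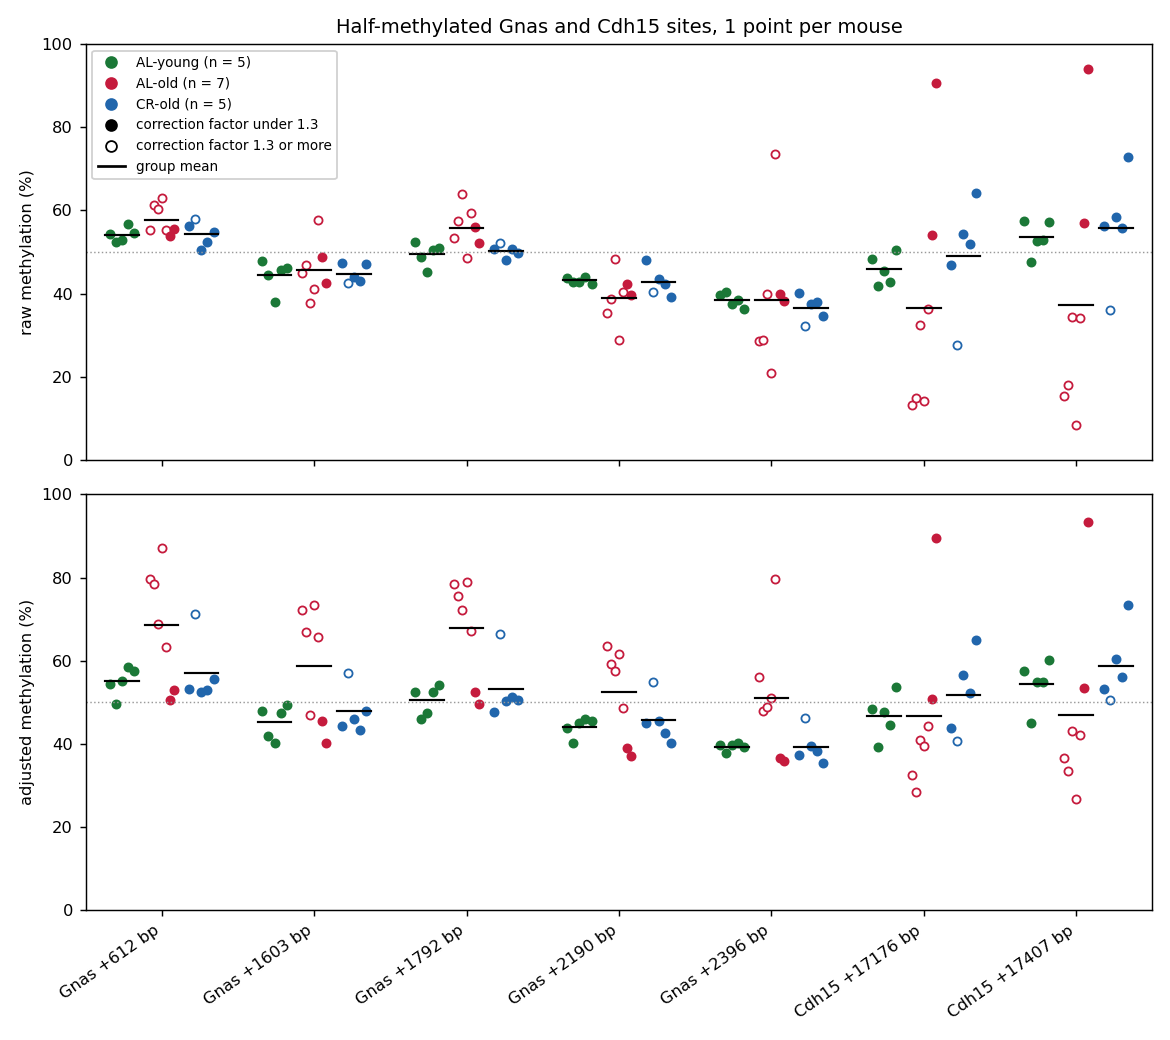
Methylation in percent (vertical axis, raw above and adjusted below) of the 5 Gnas and 2 Cdh15 half-methylated sites, named by distance from the nearest transcript start. Each point is a mouse, filled for a correction factor under 1.3 and open for 1.3 or more, and the short lines are group means. In raw values the open points range from 20.9 to 73.5% at Gnas and from 8.47 to 36.2% at Cdh15.

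At the 2 half-methylated Cdh15 sites the AL-old mice ranged from 8.47 to 94.0% raw methylation, against 41.8 to 57.5% in AL-young, and neither site was called. Cdh15 encodes M-cadherin, an adhesion protein of muscle, and the sites lie near the 3′ end of the gene, 17176 and 17407 bp from its start. Raw methylation at 125389042 was 48.3, 41.8, 45.5, 42.9 and 50.5% in the AL-young mice. The AL-old females were at 13.2, 14.8, 32.3, 14.2 and 36.2%, the AL-old males 25 and 27 at 54.1 and 90.5%. All 5 AL-old females were below and both males above the AL-young range, which ends at 41.8 and 50.5%. The CR-old mice were at 46.7, 27.5, 54.4, 51.9 and 64.3%, with the high-factor mouse 06 the lowest.

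At the neighbouring Cdh15 site at 125389273 all 5 AL-old females were again below the AL-young range, with 8.47% in AL-old 13 as the lowest and 94.0% in AL-old 27 as the highest. In adjusted values the AL-old females were at 26.8 to 43.1% there, still below the AL-young range of 44.9 to 60.1%. The remaining Cdh15 site at 125388759, 23.6 to 31.2% methylated in AL-young, was 7.21 to 11.7% in the AL-old females and 41.7 and 64.5% in the males, and in adjusted values the females were at 9.83 to 34.5%. At 125389042 the log2 odds ratio of AL-old against AL-young was -0.85 ± 0.73 (edgeR adjusted p = 0.528), and that of CR-old against AL-old was 1.03 ± 0.74 (edgeR adjusted p = 0.542). Adjustment brought the AL-old females to 28.5 to 44.3% at this site, overlapping the AL-young range of 39.1 to 53.6%, and left AL-old 27 at 89.6%.

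The values of Gnas and Cdh15 lay apart within single AL-old mice. In AL-old 13, which had the highest factor, the raw mean was 40.4% over the Gnas sites and 11.3% over the Cdh15 sites, and in AL-old 27 the means were 45.6 and 92.3%. The adjusted means of AL-old 13 were 70.4% at Gnas and 33.1% at Cdh15, above and below the AL-young mice, which were at 43.0 to 49.1% and 42.0 to 56.8%. What part cell composition, sex and the libraries have in this was not tested.

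**Figure D3:**
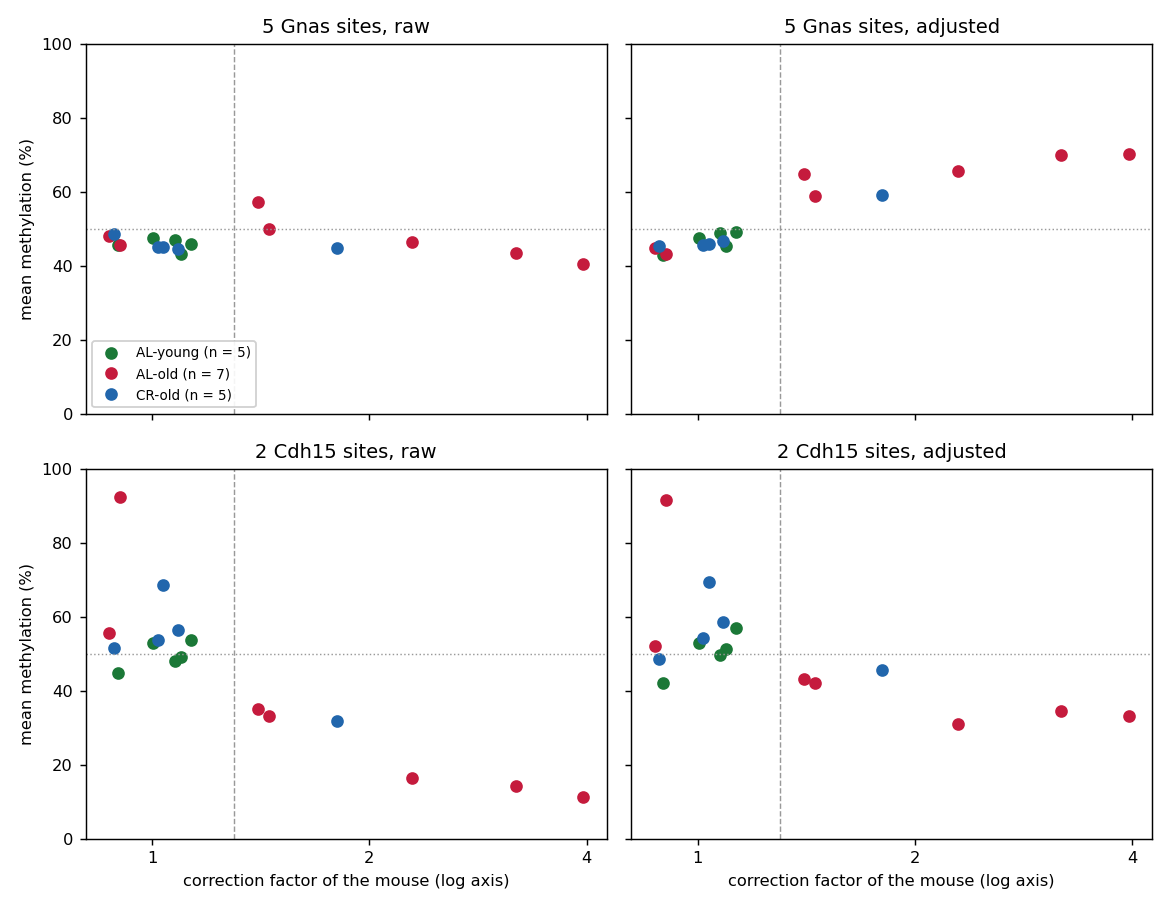
Mean methylation in percent (vertical axis) over the 5 Gnas sites (top) and the 2 Cdh15 sites (bottom) against the correction factor of each mouse (horizontal log axis, dashed line at 1.3), raw on the left and adjusted on the right. Each point is a mouse and the dotted line marks 50%. Raw Gnas means stay between 40.4 and 57.2% over all factors, and raw Cdh15 means of the mice right of the dashed line are 11.3 to 35.1%.

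Over the 7 half-methylated sites, mean adjusted methylation was 47.9 ± 3.25% in AL-young, 56.0 ± 4.55% in AL-old and 50.5 ± 3.53% in CR-old mice. In raw values the order turned, with 47.0 ± 1.80%, 44.4 ± 9.71% and 47.6 ± 3.91%. The difference between AL-old and AL-young was 8.08 points adjusted and -2.66 points raw. These values are a description, since the AL-young level chose the sites. Over the 654 other half-methylated sites of the genome, mean adjusted methylation was 51.3% in AL-young, 48.8% in AL-old and 47.7% in CR-old mice, with SDs between mice of 2.39 to 3.196 points, and in raw values it was 50.4, 39.9 and 45.2%. The 114 CpG-rich sites among them had group means of 50.3, 54.2 and 50.9% adjusted and 49.4, 44.6 and 48.3% raw, so they too were highest in AL-old in adjusted values and lowest in raw values. The median SD of raw methylation between AL-old mice was 6.44 points at the 7 sites, 19.3 points at the 654 and 20.1 points at the 114 CpG-rich ones. In adjusted values it was 13.96, 18.8 and 18.6 points. The 2 Cdh15 sites had raw SDs of 28.2 and 29.7 points.

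No half-methylated site was called in any of the comparisons. Of all 41 sites, 2 were higher and 0 lower in AL-old than in AL-young, where a call is an edgeR adjusted p under 0.05 over the 18884 sites with raw group means at least 2 points apart. Over all 18884 sites 3.95% were called higher and 6.01% lower, so the 2 of 41 (4.88%) are near the background. At an unadjusted p under 0.05, 7 were higher and 5 lower. Between CR-old and AL-old, 0 of 41 sites were called in either direction, against 1.58% of all sites higher and 1.76% lower in CR-old, with 1 and 2 sites at an unadjusted p under 0.05. Between CR-old and AL-young 0 of 41 were called, as were 0.0% of all sites in each direction, and 1 of 41 was at an unadjusted p under 0.05. With only these 2 groups in the fit 0 of 41 were again called, against 0.842% of all sites higher and 6.32% lower in CR-old. The share of all sites at an unadjusted p under 0.05 was not computed, so the unadjusted counts cannot be set against a background. The comparisons share mice and are not independent.

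The called sites were in Grb10 and Dio3, at CpG-dense stretches with little methylation in young mice. Grb10 encodes an adaptor protein that restrains growth signalling from the insulin receptor. Its site at 11937632, in an intron by the annotation and 233 bp upstream of the nearest transcript start, had raw methylation of 0.84, 0.43, 0.57, 0.35 and 0.50% in AL-young mice. The lowest, median and highest AL-old mice were at 1.00, 2.76 and 18.2%, and the CR-old mice were at 1.52, 0.93, 0.90, 1.39 and 0.60%. Every AL-old mouse was above every AL-young mouse, though the nearest pair was at 1.00 and 0.84%. The share of all sites with groups apart in this way was not computed. The highest AL-old mice were 27, 14 and 09. In adjusted values the AL-old mice were at 1.44 to 17.9% and the AL-young mice at 0.38 to 0.84%. The log2 odds ratio of AL-old against AL-young was 3.14 ± 0.80 (edgeR adjusted p = 0.00438). Against AL-old, CR-old mice were at -2.11 ± 0.77 on the same scale, which missed the threshold (edgeR adjusted p = 0.111) and overlapped in range.

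Dio3 encodes the deiodinase that inactivates thyroid hormone, and it lies at the far end of the Dlk1-Dio3 domain. All 4 of its sites, at -993, -859, -27 and 52 bp from the nearest transcript start, were at 0.44 to 3.40% raw methylation in AL-young mice. At 111517251, 27 bp upstream of the start (chr12:111517251-111517256), the AL-young mice were at 2.65, 3.40, 2.19, 2.32 and 1.51%. The lowest, median and highest AL-old mouse were at 1.52, 8.16 and 57.7%, and the CR-old mice at 5.69, 2.16, 4.15, 4.38 and 5.62%. AL-old 08 and 25 lay within the AL-young range and the other 5 above it, so the groups overlapped. In adjusted values the AL-old mice were at 2.46 to 55.2% and the AL-young mice at 1.71 to 3.06%. The log2 odds ratio was 2.22 ± 0.75 (edgeR adjusted p = 0.042). This call is not firm, since it was lost without AL-old 27 (adjusted p = 0.0877 in edgeR) and in 8 other of the 24 alternatives, with adjusted p from 0.00112 to 0.107.

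The other 3 Dio3 sites were higher in AL-old by 5.20 to 8.90 points without passing the threshold (edgeR adjusted p = 0.153, 0.0562 and 0.173), and AL-old 27 was highest at each, with 26.9, 29.4 and 48.7%. Zdbf2, a zinc finger gene with paternal expression, had a pair of promoter sites with 0.78 to 4.72% in AL-young at 63320105 and 0.89, 8.49 and 41.8% as lowest, median and highest AL-old mouse (edgeR adjusted p = 0.148). The second CpG-dense Grb10 site, 11937843, was at 49.6% in AL-old 27, 11.5% in AL-old 14 and at most 4.63% in the other AL-old mice. AL-old 27 was the highest of the 7 AL-old mice at 19 of the 37 imprinted-gene sites read in all of them (51.4%), and at 37.1% of all such sites.

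**Figure D4:**
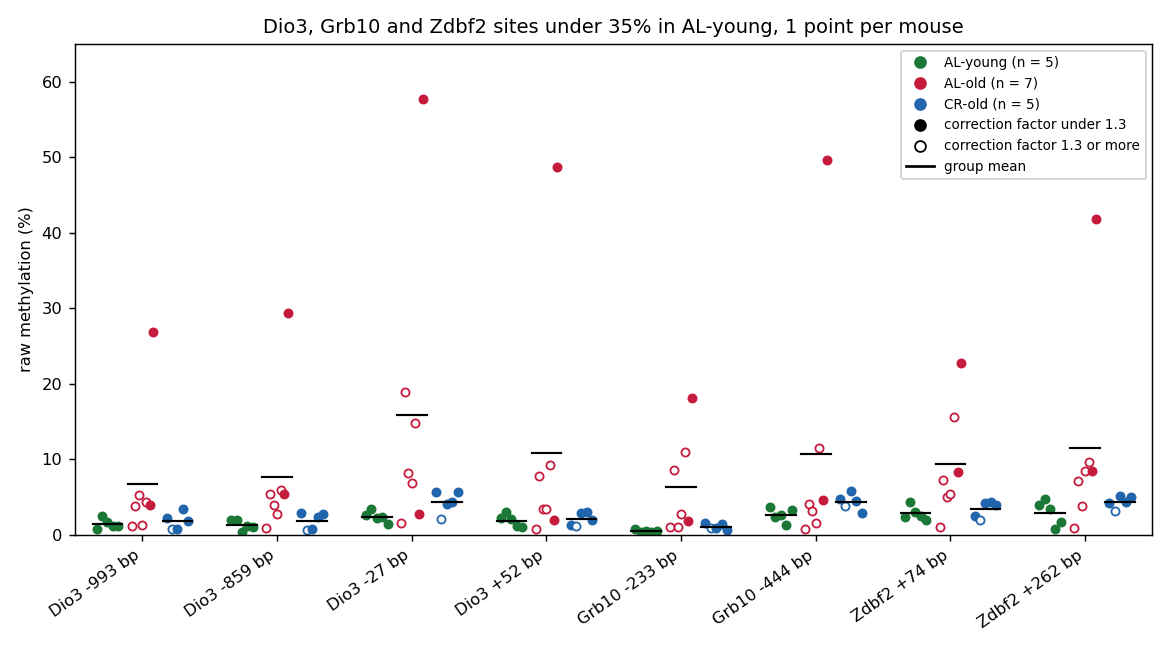
Raw methylation in percent (vertical axis, from 0 to 65) of the Dio3, Grb10 and Zdbf2 sites that were under 35% in AL-young mice, named by distance from the nearest transcript start. Each point is a mouse, filled for a correction factor under 1.3 and open for 1.3 or more, and short lines are group means. AL-young and CR-old mice are at most 5.82% at all 8 sites, and AL-old 27 reaches 57.7%. These genes were chosen after their values were seen. The median raw difference of AL-old minus AL-young was 7.28 points at the 8 sites and 0.177 points over all 28 sites under 35%.

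The number of calls among these sites moved with the correction. With the factor as an offset, 7 of 41 sites were higher in AL-old than in AL-young, namely the 4 Dio3 sites, both Zdbf2 sites and Grb10 11937632, while the share of all sites called higher rose to 7.63%. In the same fit 5 were lower in CR-old than in AL-old, the 4 Dio3 sites and Grb10 11937632, against 6.87% of all sites. In the low-factor mice alone, where the AL-old group is the 2 males, 10 were higher and 1 lower in AL-old than in AL-young, against 8.77% and 1.72% of all sites. Grb10 11937632 was called higher in AL-old in all 24 alternatives, with adjusted p from 9.11e-05 to 0.0158.

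Highly methylated sites were found inside gene bodies. Kcnq1, a potassium channel gene whose intron carries the promoter of an imprinted antisense RNA, had sites at chr7:150529427-150529432 and chr7:150529821-150529826, 194764 and 195158 bp from the nearest annotated start, and they were 93.8 to 97.7% methylated in AL-young mice. In AL-old 13 they were at 38.6 and 31.6% raw and at 71.3 and 64.7% adjusted. The CR-old mice were at 85.0 to 97.8%, and AL-old 08 had fewer than 50 reads at the second site and is left out there. At 150529427 the AL-old mice ranged as 38.6, 87.4 and 99.1% for lowest, median and highest raw, and as 68.0, 90.1 and 99.6% adjusted. The difference from AL-young missed the threshold there (edgeR adjusted p = 0.0958). The same site was called lower in AL-old with sex as a covariate, with the correction class as a covariate and in low-correction mice alone (edgeR adjusted p = 0.0373, 0.0469 and 0.0326). It was not called with the correction factor as an offset or with limma. A pair of Grb10 intron sites, 11928195 and 11928511, were at 88.2 to 98.99% in AL-young mice, and AL-old 08 and 13 had fewer than 50 reads there and are left out of the group values.

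Magel2, a gene of the Prader-Willi domain expressed from the paternal copy, has a coding exon with sites on both sides of the half-methylated band. At 69522342 raw methylation was 27.5, 34.0, 28.5, 34.8 and 34.1% in AL-young mice, and at 69522689 it was 59.7, 71.6, 66.2, 68.0 and 72.8%. AL-old 13 and 14 were the highest AL-old mice at both, with 64.4 and 54.5% at the first and 84.7 and 96.0% at the second. The means of AL-young and AL-old were 31.8 and 39.2% raw and 32.6 and 51.1% adjusted at the first site, and 67.7 and 73.0% raw and 68.4 and 79.8% adjusted at the second. Neither passed the threshold (edgeR adjusted p = 0.761 and 0.671). Cdkn1c, a cell cycle inhibitor expressed from the maternal copy, had 3 sites within the gene at 23.4 to 37.9% in AL-young mice, 15.2 to 55.4% in AL-old and 19.9 to 39.0% in CR-old. The means of AL-young and AL-old were 28.5 and 27.3% raw and 29.3 and 40.05% adjusted at 150645352. At 150645722 they were 33.6 and 32.8% raw and 34.5 and 45.4% adjusted. AL-old was thus the higher group at both only in adjusted values, and none of the 3 sites was called. At 150644970, the other Cdkn1c site, only 3 of the 7 AL-old mice had 50 reads or more.

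Promoter sites of H13, Inpp5f and the downstream Gnas promoter had raw methylation of at most 2.34% in the 17 mice, while those of Igf2 and Calcr were higher in single AL-old mice. The 2 sites at the downstream Gnas promoter, which makes the G protein subunit, were at 0.03 to 0.89% raw over the 17 mice, while the half-methylated sites are in the upstream exon of the same gene. The 2 H13 sites, at the promoter of a signal peptide peptidase gene, were at 0.02 to 0.71%. The 2 Inpp5f sites, at the promoter of a phosphoinositide phosphatase gene, were at 0.22 to 2.34% raw and reached 8.67% adjusted in AL-old 13. The lowest raw values of these Gnas, H13 and Inpp5f sites are less than 1 read and depend on depth. The Igf2 sites, near a promoter of the fetal growth factor, were at 0.06 to 11.4%, the highest value being AL-old 27 at 149846489.

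Phlda2, a growth-restraining gene of the placenta, was at 2.16 to 7.07% in AL-young and 0.34 to 2.11% in AL-old at 150687639. These ranges were apart only by the gap from 2.11 to 2.16% (edgeR adjusted p = 0.134). In adjusted values they did overlap, since AL-old 13 rose to 7.86%. Calcr, the calcitonin receptor gene, had AL-old 27 at 27.2% and AL-old 14 at 22.4% at 3714483, against at most 3.15% in the other AL-old mice. The Kcnq1 promoter sites were at 0.15 to 7.11%.

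Variation between mice was larger in AL-old than in AL-young at 37 of the 41 sites by raw SD (90.2%), and at 75.1% of all tested sites. CR-old mice varied less than AL-old mice at 33 of the 41 (80.5%), and at 72.9% of all tested sites. Further imprinted genes outside the main list, 28 genes with 26 passing sites, had 1 site higher (3.85%) and 2 lower (7.69%) in AL-old than in AL-young, near the 3.95% and 6.01% of all sites, and 1 higher (3.85%) in CR-old than in AL-old, against 1.58% of all sites. Genes of factors that keep imprints, such as Zfp57, Trim28, Dnmt1 and Uhrf1, had 14 passing sites, of which 0 were higher and 2 lower (14.3%, against 6.01% of all sites) in AL-old than in AL-young and none were called between CR-old and AL-old.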

How the data were processed

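Whole-blood DNA of 17 mice was digested with SmaI, to which methylated CCCGGG is resistant, and then with XmaI, to which it is not. The authors mapped the reads to mm9, and the submitters' processing notes name Bowtie2 and SAMtools, without versions, and the builds mm9 and mm10. The deposited files hold, per CCCGGG and mouse, counts of methylated, unmethylated and total reads, and percent methylation in a raw form and in a form that the authors adjusted with spiked standards. Libraries were sequenced on several Illumina instruments at more than one centre, and the instrument and adapter of a mouse are not given in the sources used here, so their effect on the measurements was not tested. The member genes and all lists were chosen with earlier results of these data known.

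Sites were placed on GENCODE genes of the same assembly (NCBIM37). Values resting on under 50 reads were left out of group values, and the tests used all reads. All autosomal sites covered 50 times or more in 13 or more mice (18884) were fitted over the 3 groups by edgeR 4.0.16 (quasi-likelihood F test, R 4.3.3), with 1 coefficient per mouse, 1 methylation coefficient per group and 1 common dispersion. Adjusted p-values are Benjamini-Hochberg values over all these sites, and a call needed an adjusted p-value under 0.05 together with a gap of 2 points or more between raw means. Mice were taken as replicates. Because the common dispersion is shared by all sites, the p-values rest largely on a spread between mice pooled over sites. They do not measure the spread at a single site alone, so a site with little spread of its own can remain uncalled. Middle-aged mice were not analysed here. Named sites were the most read half-methylated site of each domain and, per comparison and direction, up to 5 called sites with the largest difference, at most 1 per gene. Other sites named in the text were chosen after their values were seen. CpG-rich windows are 200 bp long with a GC content of 50% or more and 0.6 or more of the CpGs that base composition predicts. Python 3.11.15, pandas 2.3.3, numpy 2.4.6 and matplotlib 3.10.9 were used, and limma 3.58.1 in 1 alternative. Alternatives changed the depth minimum, the correction, sex, the groups in the fit, the test, the class limits, the gene window and the mice included.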

Additional observations from a re-analysis of the deposited data

Results flagged for a closer look

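Of 21 groups of per-mouse values tested for a mouse far from the rest, 2 were flagged, and chance flags about 1 in 20 groups. At the Dio3 site 111517251, AL-old 27 had 57.7% raw methylation and the nearest AL-old mouse 18.98%. Over the 6 imprinted-gene sites above 65%, CR-old 06, the CR-old mouse with a correction factor of 1.80, had a mean adjusted methylation of 91.4% and the nearest CR-old mouse 83.1%. In raw values that mean was 86.7% in CR-old 06.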

How the results depend on the processing

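For AL-old against AL-young, the 2 sites higher and 0 lower (3.95% and 6.01% of all sites) moved with the setting. They became 7 higher with the correction factor as an offset (7.63% of all sites higher) and 7 with limma on adjusted methylation (8.0%). With the correction class in the model 6 were higher and 1 lower (4.92% and 1.18%). In low-correction mice alone 10 were higher and 1 lower (8.77% and 1.72%). With sex as a covariate 3 were higher and 1 lower (4.22% and 4.88%). Only the compared groups in the fit gave 1 higher (3.16%). Without the upstream bases 1 was higher, in the fit with 3.95% of all sites higher. Leaving out 1 mouse gave 1 to 3 sites higher and 0 to 2 lower, against 2.93 to 4.78% and 4.62 to 9.11% of all sites. The lower ones were Kcnq1 150529427 without AL-old 09 or 14, Calcr 3714671 without AL-old 13, 25 or 27, and Kcnq1 150293438 without AL-old 25 or 27. Without AL-old 25 or 27, 9.11% and 7.12% of all sites were lower. For CR-old against AL-old, the 0 sites lower in CR-old (1.76% of all sites) became 5 with the offset (6.87%), 4 with limma (6.61%), 1 with the correction class (1.19%) and 1 in low-correction mice (2.22%). With 1 mouse left out 0 to 1 were lower. Grb10 11937632 was called without AL-old 08 (2.96% of all sites lower) or 25 (3.73%). CR-old against AL-young gave 0 member sites in every alternative run, while the share of all sites moved. With only the compared groups in the fit, 0.842% of all sites were higher and 6.32% lower in CR-old. In low-correction mice alone the shares were 0.297% and 2.02%. The mean over the half-methylated sites reversed in raw percent, to -2.66 points for AL-old minus AL-young and 3.28 points for CR-old minus AL-old, from 8.08 and -5.50 points adjusted; with 1 mouse left out the adjusted differences were 6.79 to 9.60 and -7.01 to -4.47 points. The causes were not tested, other than that leaving out mice or narrowing the window reduces what is compared. No paired analysis was possible because the groups share no replicate numbers. Depth limits the least read sites, where 50 reads leave a wide interval.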
